A study of Mus musculus with 6 samples.

Results

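The olfactory receptor genes are the largest gene family of the mouse and are best known from the nose, while the arrays described here held brain RNA. All 44 probe sets of the array that carried exactly 1 gene symbol beginning with Olfr and a number were taken, with no filter on dim signals. They stood for 39 genes, out of 1428 Olfr genes in the RefSeq annotation of GRCm38.p6 and 18193 genes on probe sets with 1 symbol. Of the 1428, 1110 were annotated as protein coding. Each probe set reports 1 transcript, or a few related ones, through several short oligonucleotides. Of the 39 genes, 36 had 1 probe set, Olfr701 and Olfr66 had 2 each, and Olfr78 had 4. A further 3 probe sets carried several symbols, at least 1 of them an olfactory receptor, and entered only an alternative count.

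The arrays came from whole-brain RNA of 6 female littermates, all aged 123 days, with 1 array per mouse. In 4 mice both copies of the melanotransferrin gene were disrupted (MTf -/-), and their strain is given as C57BL/6 - Lucy. The other 2 were MTf +/+ wild types of strain C57BL/6. Neither the deleted part of the gene nor the meaning of Lucy is stated in the labels. The comparison asks which brain transcripts differ when melanotransferrin, an iron-binding membrane protein, is missing. The targeted gene, Meltf, read 80.7, 132.9, 155.9 and 84.1 in the knockouts and 146.5 and 228.7 in the wild types, so that 1 knockout lay between the wild types. The place of these probes relative to the deletion is unknown, so this value does not check the labels. Mice are numbered in order of deposit, and the numbers only name an array.

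An olfactory receptor is a membrane protein that couples to a G protein and binds odorants. Each sensory neuron of the nose chooses a single receptor gene and keeps the rest of the family silent, and its axon ends in the olfactory bulb of the brain. The receptor acts through the G protein subunit Gnal and the adenylyl cyclase Adcy3, which opens the cyclic nucleotide channel formed by Cnga2, Cnga4 and Cngb1. Some receptors are also known from other organs, among them Olfr78 in kidney and carotid body and Olfr16 in sperm. In a whole-brain extract, fewer cells that hold a transcript and less of it per cell cannot be told apart.

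Signals of the family lay low on every array. The median of the 44 probe sets was 58.55, 61.85, 41.95 and 93.5 over knockouts 1 to 4, and it was 35.65 on wild type 1 and 67.75 on wild type 2. The median of all 45037 non-control probe sets on the same arrays lay between 192.5 on wild type 1 and 278.3 on knockout 4. The family median was therefore 16.9% to 33.6% of the array median. No member lay above the array median on all 6 arrays. Of the 264 single values, 9 lay above the median of their array and 0 above its 75th percentile.

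Much of the family lay at the bottom of the table. A signal of 49.6, the 20th percentile of all deposited values, was added before taking log2 and is called the offset below. Of the 44 members, 18, 19, 23 and 14 lay below it on knockouts 1 to 4, as did 26 on wild type 1 and 20 on wild type 2. That was 31.8% to 59.1% of the members, against 17.6% to 24.5% of all probe sets. Over the arrays, 5 members were below the offset throughout and 10 never were. The files used here hold no detection calls, so none of these values can be called present or absent. As a gauge of empty probe sets, the 3 control probe sets for the bacterial trp gene read 2.4 to 78.7, where the highest of the 3 ran from 7.6 on knockout 3 to 78.7 on knockout 4. Set against the highest trp signal of the same array, 11 of the 44 members lay above it on each of the 6 arrays. The same count over all probe sets was not made, and the cut rests on 3 probe sets. The 11 can therefore not be read as a trait of the family.

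**Figure D1:**
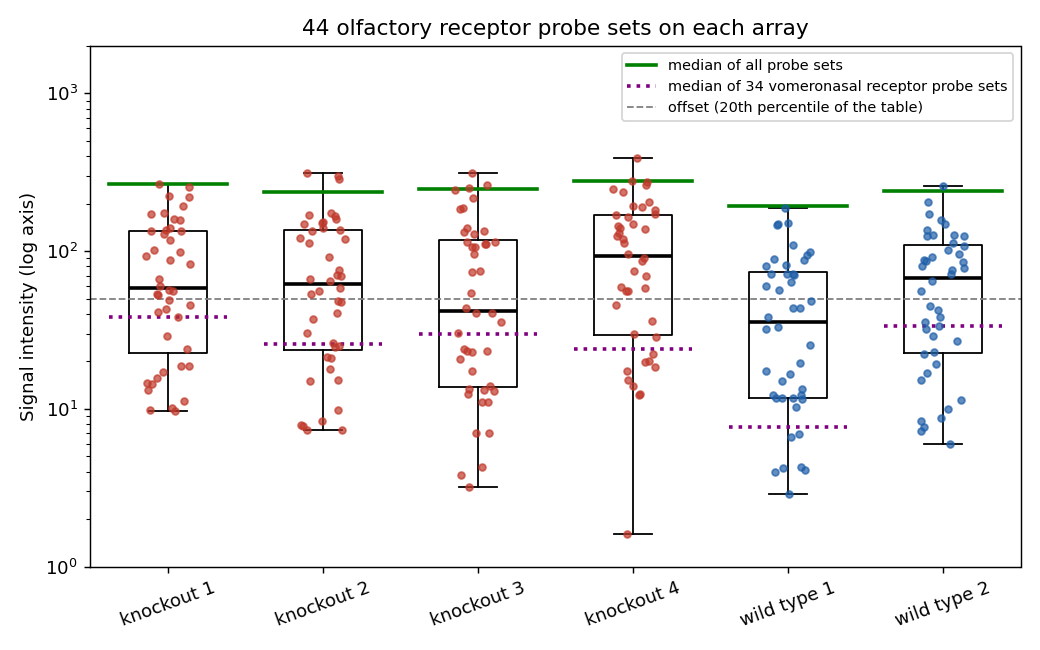
Signal intensity (log axis) of the 44 olfactory receptor probe sets on each of the 6 arrays, with knockout in red and wild type in blue. Boxes show the quartiles and the median, whiskers the lowest and highest member, green lines the median of all probe sets, dotted purple lines the median of 34 vomeronasal receptor probe sets, and the dashed line the offset of 49.6. The members' median lay below the green line on every array, lowest on wild type 1 (35.65) and highest on knockout 4 (93.5).

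The vomeronasal receptors, another family of sensory receptors of the nose, had a lower median still on each array. Their highest signal was nonetheless above the highest olfactory receptor signal on each array, as with 341.4 against 187.6 on wild type 1 and 491.9 against 390.7 on knockout 4. The median of their 34 probe sets, which stood for 31 genes, was 38.25, 25.6, 29.65 and 23.8 in the knockouts and 7.7 and 33.45 in the wild types. The 7 taste and trace amine receptor probe sets had medians from 21.9 on wild type 1 to 52.8 on wild type 2. The difference between the families was not tested, since probe sets differ in how well they bind.

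Arrays wild type 1 and knockout 4 held the extremes of the olfactory receptor signals. Knockout 4 was the highest array for 19 of the 44 members, or 43.2%, and wild type 1 was the lowest for 18, or 40.9%. Over all probe sets the same arrays were highest in 25.9% and lowest in 31.0%. Wild type 1 was also the lowest array for 20 of the 34 vomeronasal probe sets. It had 24.5% of all its probe sets below the offset, the most of any array, and it is 1 of only 2 wild types. Its part in each difference below was not tested beyond leaving it out. The brain markers Snap25, Syt1, Gfap, Aqp4 and Mbp were at or above the 83.2 percentile on all arrays, and knockout 2 lacked most of the cerebellar signal, with Pcp2 at 185.8 against 22260 or more elsewhere.

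Between the groups no member passed the test. In limma, adjusted by Benjamini-Hochberg over all 45037 probe sets, 0 of the 44 members and 0 of all probe sets had an adjusted p below 0.05, or 0% called. At an unadjusted p below 0.05 there were 5 members, 4 higher and 1 lower in the knockout. That is 11.4% of the members against 6.76% of all probe sets, with 4.92% called higher and 1.84% called lower. Complete separation of the groups was seen for 8 members that were higher (18.2%) and 1 that was lower (2.27%), against 11.3% and 4.81% of all probe sets. Without wild type 1 the members at an unadjusted p below 0.05 numbered 2, the brighter Olfr701 probe set and 1 of Olfr78. Without wild type 2 limma called 171 of all probe sets at an adjusted p below 0.05, and 0 of the members.

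With the scaling as deposited, most members had a higher mean in the knockout. The median log2 fold change of the members was 0.24, beside 0.078 over all probe sets, and 32 of the 44 were above 0, or 72.7% against 60.3% of all probe sets. This depended on scaling, and the median also on the offset. After quantile normalisation the members' median was 0.093 with 24 above 0, and after centring each array on its median it was 0.025 with 22 above 0, where the medians of all probe sets were -0.0071 and -0.14. Of all probe sets at an unadjusted p below 0.05, the share that was higher in the knockout was 72.8% as deposited, 54.0% when quantile normalised and 20.3% when median centred. Among the members these splits were 4 of 5, 2 of 3 and 1 of 2. Without wild type 1 the members' median was 0.14, and without wild type 2 it was 0.39. With an offset 4 times larger it was 0.080, beside 0.049 over all probe sets, and 32 members were above 0. With an offset 0.25 times as large it was 0.47, beside 0.091 over all probe sets, and 30 members were above 0.

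**Figure D2:**
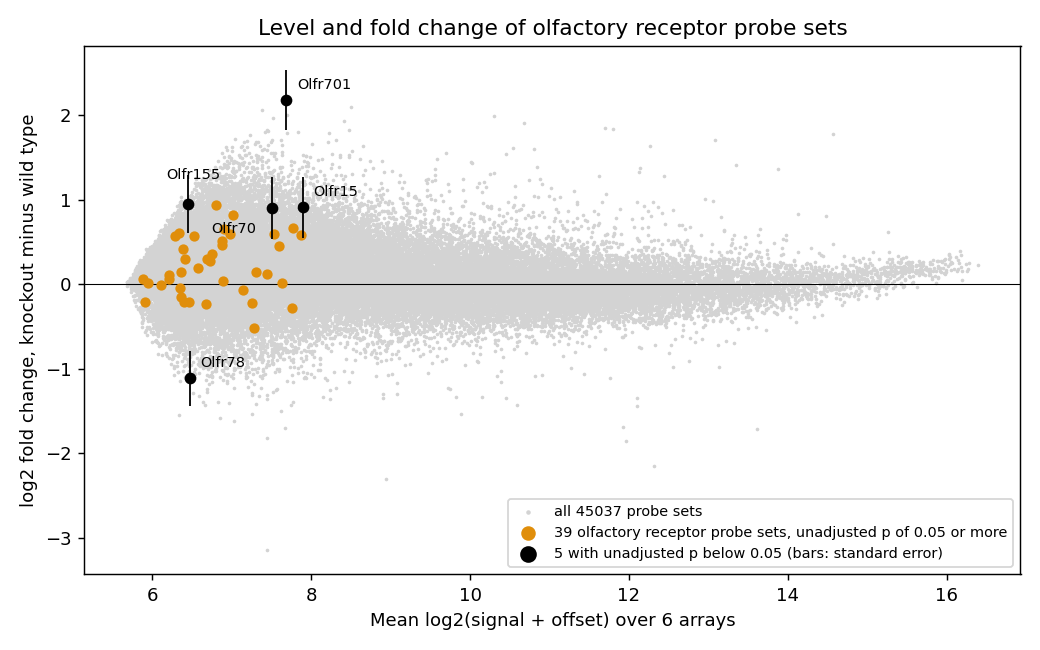
Mean log2(signal + 49.6) over the 6 arrays (horizontal axis) against the log2 fold change, knockout minus wild type (vertical axis), for all 45037 probe sets in grey and the 44 olfactory receptor probe sets in colour. Black points with standard error bars are the 5 members with an unadjusted p below 0.05. Members crowd at the dim end, where grey points also spread widely, and Olfr701 at 2.18 and Olfr78 at -1.11 stand farthest from 0.

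Olfr701 was the member with the largest difference between the groups, and was singled out from earlier results of these data. It lies on chromosome 7 and belongs to class II by its receptor family number. On the brighter of its 2 probe sets, 1432098_a_at, the knockouts read 266.4, 312.7, 218.7 and 390.7 and the wild types 19.5 and 32.1. Every knockout was thus above both wild types. The group values were 297.1 ± 73.2 (SD, n = 4) and 25.8 ± 8.91 (SD, n = 2). The log2 fold change was 2.18 (SE 0.36, 95% confidence interval 1.39 to 2.97). The limma p was 0.000113 and the adjusted p was 0.653. A 2-sided exact permutation test gave p = 0.0667, the smallest that 4 against 2 arrays allow. Since the gene was picked with this difference known, the interval and these p values are no independent support for it.

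In rank terms this probe set lay at the 49.9, 55.6, 47.2 and 58.0 percentile of knockouts 1 to 4 and at the 14.4 and 15.3 percentile of wild types 1 and 2. The knockout signals were thus near the middle of the array and the wild-type signals among the dimmest. Both wild-type values lay below the offset, which therefore sets the size of the fold change: it was 1.13 with an offset 4 times larger and 3.01 with one 0.25 times as large. With any single array left out it stayed between 2.06 and 2.30, and the limma adjusted p ran from 0.100 without wild type 2 to 0.99999 without wild type 1.

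The other Olfr701 probe set, 1430455_at, showed no such separation. It read 18.6, 40.6, 23.3 and 144.1 in the knockouts and 63.5 and 64.3 in the wild types. Here 3 of the 4 knockouts were below both wild types and knockout 4 was above them. The log2 fold change was -0.23 (SE 0.43, limma adjusted p = 0.923). Where in the gene each of the 2 sets binds was not examined. None of the 10 Olfr genes next to Olfr701, 5 on each side in the annotation, had a probe set with 1 symbol, so its neighbours could not be set beside it.

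The start region of Olfr701 is printed because the gene differed most between the groups. Beside it is that of Olfr15, the member with the highest mean log2 signal. Both come from RefSeq on build GRCm38.p6 and run from 250 bases before to 50 bases after the annotated start. For Olfr15 the last 50 bases open with ATG, a start codon, and for Olfr701 they do not. The annotated starts may therefore mark unlike places, the start of the coding part in Olfr15. Whether this holds for other windows was not examined, so the shares below carry the same limit. The windows are chr7:106813879-106814178 and chr16:3838725-3839024, both on the plus strand, 5′ to 3′. Capitals mark matches, on either strand, to TAATGA or TAATTA, core letters bound by homeodomain factors such as Lhx2.
Olfr701: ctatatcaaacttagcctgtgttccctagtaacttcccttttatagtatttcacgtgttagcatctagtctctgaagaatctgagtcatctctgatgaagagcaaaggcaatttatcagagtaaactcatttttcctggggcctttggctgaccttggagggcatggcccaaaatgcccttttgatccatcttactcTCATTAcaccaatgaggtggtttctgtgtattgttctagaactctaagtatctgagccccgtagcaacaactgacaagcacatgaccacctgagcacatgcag
Olfr15: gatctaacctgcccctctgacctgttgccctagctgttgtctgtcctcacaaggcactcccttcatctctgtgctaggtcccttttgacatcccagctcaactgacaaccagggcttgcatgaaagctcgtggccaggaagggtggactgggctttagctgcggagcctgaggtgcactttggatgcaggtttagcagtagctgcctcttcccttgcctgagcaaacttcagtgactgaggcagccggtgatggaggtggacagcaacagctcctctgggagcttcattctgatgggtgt
Olfr701 held 1 match, a TAATGA on the minus strand, and Olfr15 held none. Since the windows may cover unlike regions, these counts cannot be compared. The start table had 30 windows for 29 of the 39 member genes. TAATGA was in 8 of these 30 windows (26.7%), in 28.8% of the 948 windows of all olfactory receptors and in 9.78% of all 32851 windows. For TAATTA the shares were 6.67%, 18.6% and 5.29%. The searched words both begin with TAAT, and matches to them can share bases. Mean GC content was 42.1% in the members' windows, 36.1% in those of all olfactory receptors and 53.8% in all windows.

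A chosen group of 4 receptors known outside the nose showed no common direction. It is not a full list of such receptors. Over the 7 probe sets of Olfr78, Olfr16, Olfr544 and Olfr558, 2 log2 fold changes were above 0 and 5 below, with a median of -0.21. Of these 7, 4 were of Olfr78, so the count and the median rest mostly on that gene. Olfr78, a receptor for short-chain fatty acids that acts in blood vessels of the kidney and in the carotid body, had 4 probe sets that went opposite ways. Its brightest read 171.3, 140.5, 261.2 and 273.3 in the knockouts and 98.4 and 125.1 in the wild types. All knockouts were above both wild types, and the log2 fold change was 0.66 (SE 0.37, limma p = 0.100, adjusted p = 0.746, exact permutation p = 0.133). A second Olfr78 probe set, 1440009_at, read 52.5, 8.4, 3.8 and 20.1 in the knockouts and 108.9 and 88.4 in the wild types. Here all knockouts were below both wild types, and the log2 fold change was -1.11 (SE 0.33, limma p = 0.00699, adjusted p = 0.738, exact permutation p = 0.0667).

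This was the only member that was lower in the knockout without overlap or at an unadjusted p below 0.05. Its knockout mean of 21.2 lay below the offset, and with an offset 4 times larger the log2 fold change was -0.44. The other 2 Olfr78 probe sets ran from 4.1 to 126.4 and from 1.6 to 22.8, each with a log2 fold change of -0.21, and their groups overlapped. The 2 Olfr66 probe sets also disagreed. The brighter read 220.5, 153.8, 251.5 and 261.2 in the knockouts against 151.1 and 108.6, and its groups did not overlap (log2 fold change 0.59, SE 0.34, limma adjusted p = 0.758). The dimmer, of a kind that can match several transcripts, ran from 60.5 to 157.9 with overlapping groups and a log2 fold change of -0.22.

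**Figure D3:**
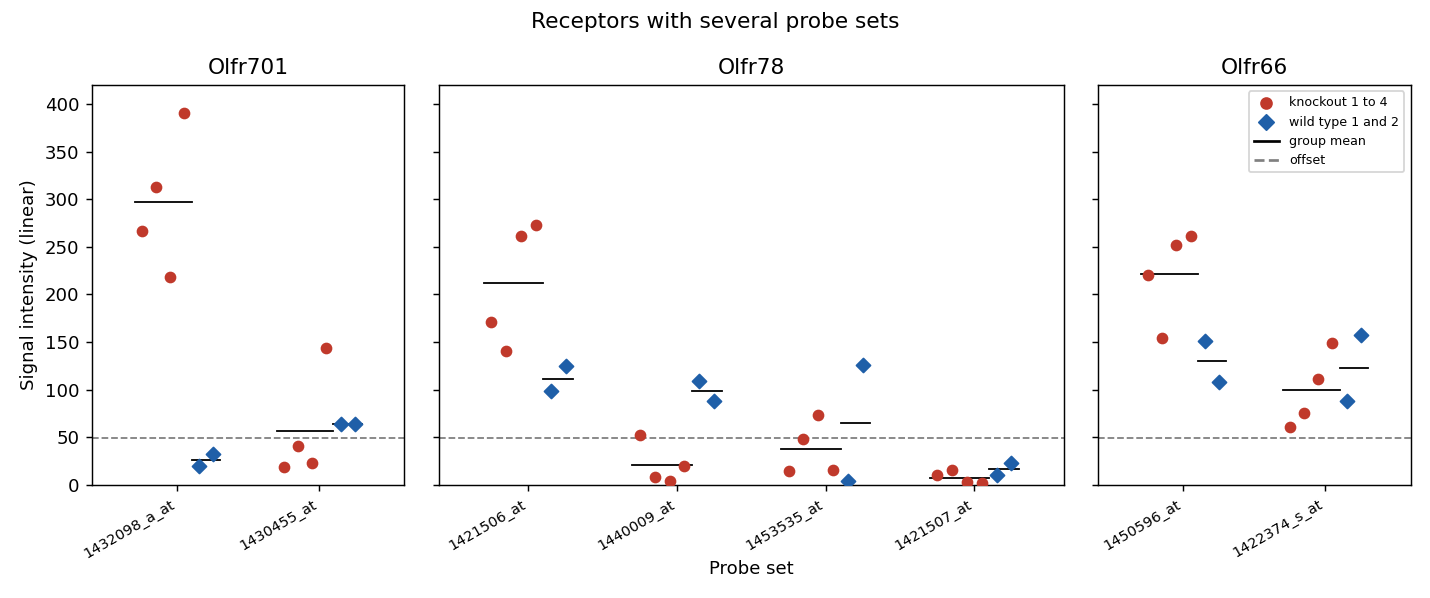
Signal intensity (linear axis) of the 3 olfactory receptor genes that had several probe sets, by mouse, with knockouts 1 to 4 as red circles from left to right and wild types 1 and 2 as blue diamonds. Black lines are group means and the dashed line is the offset of 49.6. Olfr701 separates the groups on 1 of 2 probe sets, and 2 Olfr78 probe sets separate them in opposite directions, one with knockout values of 140.5 to 273.3 and the other with 3.8 to 52.5.

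The other receptors of the chosen group known outside the nose were dim. Olfr16, also called MOR23, a receptor found in sperm, read 88, 149, 11 and 168.5 in the knockouts and 147.4 and 147.9 in the wild types. Knockouts 3 and 1 were below both wild types and knockouts 2 and 4 above them, and the log2 fold change was -0.52 (SE 0.52). Olfr558, a receptor for carboxylic acids, ran from 7.8 to 17.3 over the 6 mice with a log2 fold change of 0.012. Olfr544, a receptor for azelaic acid also described in fat and liver, ran from 8.8 to 48.4 with -0.0074. Neither exceeded the offset on any array.

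Of the other receptors known from earlier work, Olfr15 read 224.3, 287.3, 314.6 and 171.4 in the knockouts against 80.8 and 136.8. Its groups did not overlap. The log2 fold change was 0.91 (SE 0.36, limma p = 0.0294, adjusted p = 0.738, exact permutation p = 0.0667). Without wild type 1 it was 0.66, with an unadjusted limma p of 0.179. Olfr2, the I7 receptor for octanal, read 66.7, 136, 114.2 and 118.8 against 11.5 and 77.7. Wild type 2 lay within the knockout range, and the log2 fold change was 0.82 (SE 0.40, limma adjusted p = 0.743).

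Olfr73, the eugenol receptor mOR-EG, ran from 4.2 to 119.5, with wild types 1 and 2 at 4.2 and 91.8. Olfr17, the P2 receptor used to map axon targeting, ran from 22.2 to 140.5 and had a log2 fold change of 0.28 (SE 0.41). Olfr1507, Olfr1508 and Olfr1509 form the MOR28 cluster of chromosome 14, in which the choice of a single receptor gene has been studied. Olfr1508 read 129.2, 299.6, 242.7 and 36.1 in the knockouts and 187.6 and 112.9 in the wild types, for a log2 fold change of 0.019 (SE 0.55). Knockouts held both its highest and its lowest value. Olfr1507 ran from 4.3 to 159.7 and Olfr1509 from 15.2 to 163.7, both with overlapping groups.

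The OR37 subfamily, whose neurons sit in a small patch of the nose, had 4 genes on the array, all on chromosome 4. Olfr155 read 82.4, 55.5, 95.9 and 18.3 in the knockouts against 6.9 and 6 in the wild types, with no overlap. The log2 fold change was 0.95 (SE 0.35, limma p = 0.0207, adjusted p = 0.738, exact permutation p = 0.133). The wild-type values and that of knockout 4 were below the offset, and with an offset 4 times larger the log2 fold change was 0.34. Its relatives Olfr156, Olfr157 and Olfr159 ran from 4.3 to 69.6, with log2 fold changes of 0.067, -0.045 and 0.070.

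The genes Olfr64 to Olfr68 carry names for their places beside the beta-globin genes, and had 6 probe sets with signals from 7.3 to 261.2. None reached an unadjusted p below 0.05. Olfr65 read 173.9, 160.1, 129 and 192.4 against 94.6 and 86, so that the groups did not overlap. Its log2 fold change was 0.60 (SE 0.34, limma adjusted p = 0.750, exact permutation p = 0.0667). Over these 6 probe sets 4 log2 fold changes were above 0 and 2 below, with a median of 0.46.

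Olfr70 of chromosome 4 was the last of the 5 members at an unadjusted p below 0.05. It read 117.3, 170.1, 184.8 and 246.1 in the knockouts and 60.3 and 80.7 in the wild types. All knockouts were higher, and the log2 fold change was 0.91 (SE 0.37, limma p = 0.0334, adjusted p = 0.738, exact permutation p = 0.0667). Olfr112 also separated the groups, at 56.6, 53.8, 22.8 and 28.4 against 12.3 and 7.7, but most of these values lay below the offset (log2 fold change 0.58, limma adjusted p = 0.743, exact permutation p = 0.133). Olfr288 went the other way on average, at 255.1, 166, 188.9 and 58.7 against 148.7 and 258.4, with overlapping groups. Olfr480 read 192.1, 173.6, 113.9 and 190.5 against 88.9 and 126.7, and overlapped as well.

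Several members ranged widely over the 6 mice. On the log2 scale with the offset added, the range was 2.67 for Olfr701, where it spans the gap between the groups, and 2.23 for Olfr870 and 2.03 for Olfr1508, whose groups overlapped. Olfr870 read 157.1, 24.9, 35.3 and 237 in the knockouts and 11.7 and 35.7 in the wild types. Olfr64 read 41, 37, 43.3 and 205 in the knockouts and 71.4 and 19.3 in the wild types. For Olfr870 2 knockouts, and for Olfr64 1 knockout, stood above the rest of their own group. The 39 members with an unadjusted p of 0.05 or more had log2 fold changes between -0.52 and 0.94.

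**Figure D4:**
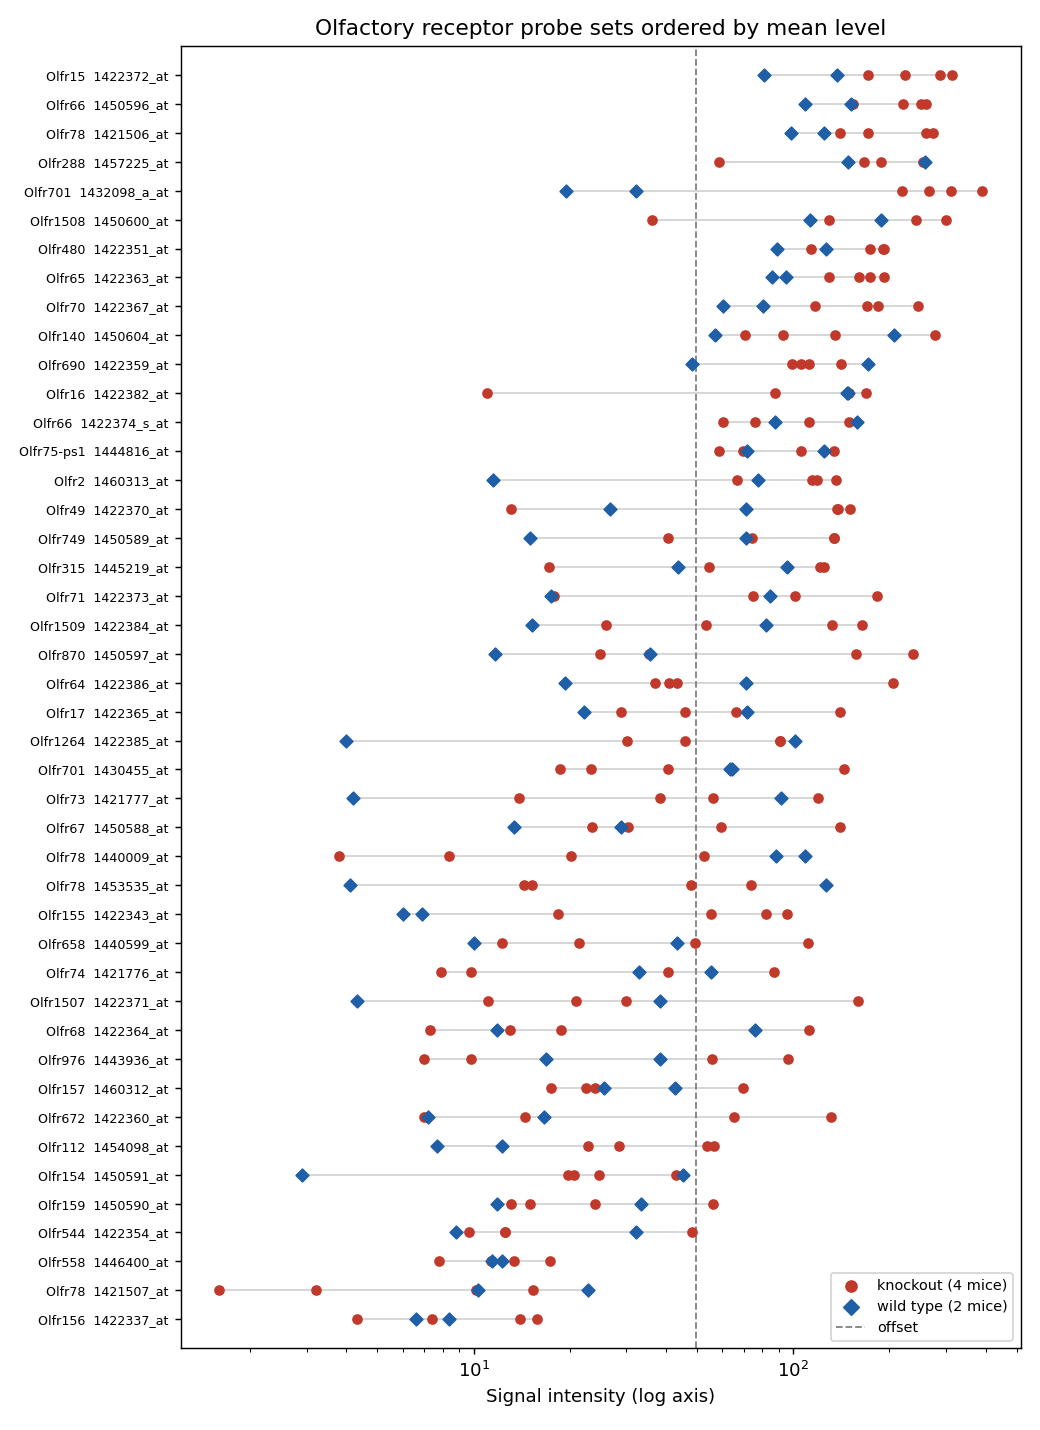
Signal intensity (log axis) of each of the 44 olfactory receptor probe sets, 1 line per probe set, ordered by mean log2 level from top to bottom. Red circles are the 4 knockout mice, blue diamonds the 2 wild types, the grey line spans the 6 values, and the dashed line marks the offset of 49.6. The groups overlap for 35 probe sets, and Olfr701 shows the widest gap, from 32.1 in the higher wild type to 218.7 in the lowest knockout.

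Receptors of class I and class II, the older and the younger branch of the family, were told apart by the family number in their RefSeq synonyms. Class I had 15 probe sets for 11 genes and class II 29 for 28 genes. The array medians of class I ran from 43.3 on knockout 3 to 112.3 on knockout 4, and those of class II from 33 on wild type 1 to 90.6 on knockout 4. Log2 fold changes were above 0 for 9 of 15 class I and 23 of 29 class II probe sets, with medians of 0.15 and 0.28. Of the 39 genes, 15 lay on chromosome 7, 6 on chromosome 4, and 5 each on chromosomes 2 and 14.

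The rest of the olfactory pathway was read from a list of 47 gene symbols, of which 39 were measured, taking the brightest probe set of each. With limma, 0 of them passed an adjusted p of 0.05, and at an unadjusted 0.05 there were 2, both higher in the knockout. Log2 fold changes were above 0 for 26 genes and below for 13, with a median of 0.082. Of the sensory neuron and transduction symbols 24 of 28 were measured, of the supporting and gland cell symbols 5 of 8. Of the olfactory bulb symbols 10 of 11 were measured. The other bulb symbol, Pcdh21, is an earlier name of Cdhr1, which was measured, so no bulb gene of the list was missed.

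The 5 measured markers of the sensory neuron differed in level. Omp, the olfactory marker protein, read 50.2, 88.4, 227 and 77.5 in the knockouts and 78.2 and 57.3 in the wild types on its brighter probe set. On the other it read 39.9, 193.3, 46.5 and 66.7 against 14 and 21, so that only there were all knockouts higher (log2 fold change 0.90, limma adjusted p = 0.743). Cnga2, the channel subunit that carries the odour response, ran from 13.2 to 104.3 and Cnga4 from 6.1 to 92. Stoml3, a protein of the sensory cilia, ran from 87.1 to 383.3, and S100a5 from 97 to 618.6. Cyp2g1, an enzyme of the supporting cells, ran from 10.7 to 112.3. The receptors themselves ran from 1.6 to 390.7, so that of these genes S100a5 exceeded every receptor value, in knockout 2. By contrast, transduction genes that other brain cells also use were bright: Gnal, the G protein subunit that also serves striatal neurons, ran from 6145 to 9010, and Adcy3 from 1864 to 2157. Their log2 fold changes were 0.24 (SE 0.17) and 0.062 (SE 0.13), and the groups overlapped for each.

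The 2 listed genes at an unadjusted p below 0.05 were S100a5 and Emx2. S100a5, a calcium-binding protein of olfactory sensory neurons, read 243.7, 618.6, 226.4 and 296.7 against 97 and 174.6. All knockouts were higher and knockout 2 was the highest, and the log2 fold change was 1.03 (SE 0.42, limma p = 0.0328, adjusted p = 0.738, exact permutation p = 0.133). Emx2, a homeobox factor of the nose and the forebrain, read 755.4, 814.6, 683.9 and 774 against 554.1 and 475.5 (log2 fold change 0.52, limma p = 0.0170, adjusted p = 0.738, exact permutation p = 0.0667). Median centring gave 3 such listed genes, all 3 lower in the knockout, without wild type 1 there was 1, and without knockout 1 there were 4.

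Markers of the olfactory bulb were measurable and varied between mice. Cdhr1, a cadherin of mitral and tufted cells, read 293.2, 1255, 560.6 and 727.6 in the knockouts and 502.2 and 289.3 in the wild types. Doc2g read 290.7, 621.5, 243.7 and 255 against 196.6 and 251.5. Tbx21, a factor of mitral and tufted cells, read 152.5 in knockout 2 and 8.6 to 17.2 elsewhere. Knockout 2 was thus highest for each of the 3, but not for the other bulb markers, Eomes and Th. Eomes read 835.5, 333.9, 438.3 and 858.5 in the knockouts and 473.8 and 285 in the wild types. Th was lowest in knockout 2, at 358 against 485.5 to 686.5 elsewhere. The summed signal of the 5 bulb markers Tbx21, Eomes, Cdhr1, Doc2g and Th ran from 1743 to 2721 in the knockouts and was 1789 and 1455 in the wild types. That of the 5 measured sensory neuron markers ran from 703.8 to 995.2 in the knockouts and was 521.6 and 451.8 in the wild types. Within this sum only S100a5 separated the groups. Omp, Cnga2, Cnga4 and Stoml3 overlapped on the probe sets used, and Cnga4 was lower on average in the knockout (log2 fold change -0.36). The part of the bulb and sensory neuron markers in the receptor values was not tested.

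**Figure D5:**
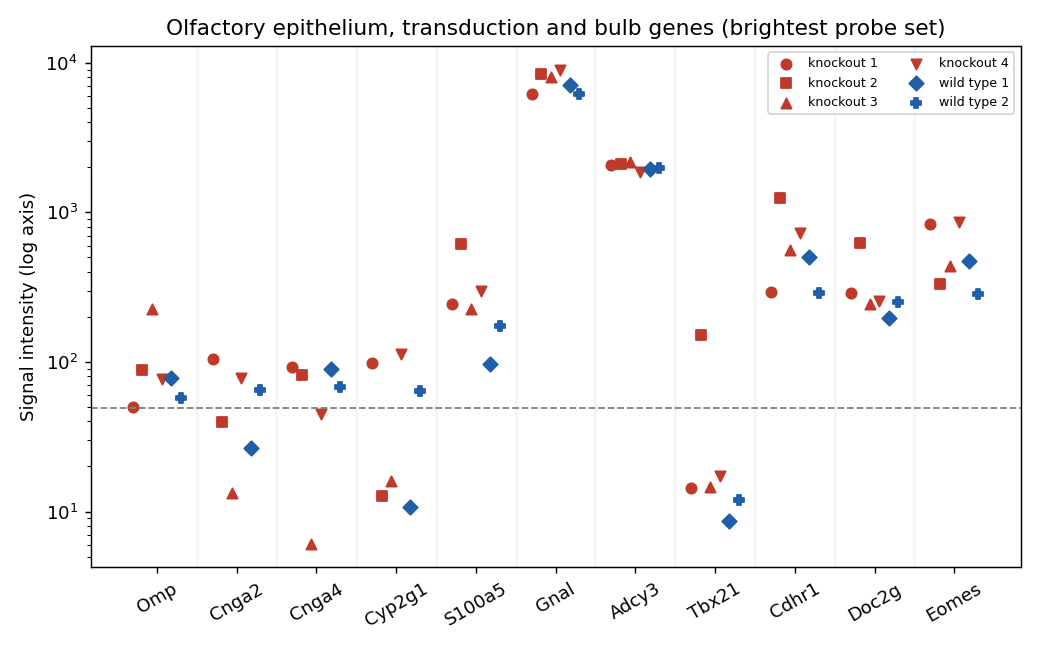
Signal intensity (log axis) of genes of the olfactory epithelium, of odour transduction and of the olfactory bulb, brightest probe set of each, with 1 marker shape per mouse, knockouts in red and wild types in blue. The dashed line is the offset of 49.6. Omp, Cnga2, Cnga4 and Cyp2g1 lie between 6.1 and 227, and Gnal and Adcy3 between 1864 and 9010. Of the bulb genes shown, knockout 2 is highest for Tbx21 (152.5), Cdhr1 (1255) and Doc2g (621.5), but not for Eomes (333.9, within 285 to 858.5).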

How the data were processed

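The members, lists and tests were chosen with earlier results of these data known. Each deposited value is the authors' linear signal intensity of a probe set, scaled to a common level across arrays. GCOS 1.3 is the tool named per the submitters' processing notes, while sources used here state neither the summary method nor detection calls. Of 45101 probe sets, 64 controls were left out. Symbols came from the platform annotation and were set against GRCm38.p6 by gene identifier, which changed 0 of them, and 34945 probe sets had 1 symbol, 932 several and 9160 none. Log2(intensity + 49.6) was fitted in limma 3.58.1 (R 4.3.3) by lmFit and eBayes, the latter following the mean intensity, knockout minus wild type, without covariates, with 4 residual and 5.91 prior degrees of freedom. Tests were 2-sided, with Benjamini-Hochberg adjustment over 45037 probe sets. The fit was tested on simulated data, with shifts placed only in probe sets above the 40th percentile of mean level. Of the members 7 lie there, so that test does not cover the dimmer ones. Single probe sets were also tested by exact permutation over 15 splits. The number of arrays limits the precision. Groups came from the labels, which give no batch or pairing. Each array is a separate mouse.

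Named members were Olfr701, the 8 with the highest mean log2 level, up to 5 per direction with the smallest p among those without overlap, the 5 with the widest range, and 11 measured of 20 receptors known from other work. Others are named for their subfamily or shared gene and were chosen after their values were seen. Named genes of the pathway list were those at an unadjusted p below 0.05 and Omp, Gnal, Adcy3, Cnga2 and Tbx21. From the marker lists Cnga4, Stoml3, Cyp2g1, Cdhr1, Doc2g, Eomes and Th were added. Probe sets differ in binding, so the order of their signals is no order of transcript amounts. Alternatives were other normalisations, offsets, a dim filter, no intensity trend, other member sets and leaving out each array. Plots were drawn in Python 3.11.15.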

Additional observations from a re-analysis of the deposited data

Results flagged for a closer look

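In 3 of 33 sets of 4 knockout values tested, 1 mouse lay far from the other 3, and chance gives about 1 in 20 such cases. The gap to the nearest mouse, as a share of the range on the log2 scale, was 0.935 for Olfr64, where knockout 4 read 205 and the others 37 to 43.3. It was 0.908 for Olfr544, where knockout 2 read 48.4 and the others 9.7 to 12.5, all below the offset. It was 0.963 for Tbx21, the bulb marker, where knockout 2 read 152.5 and the others 14.4 to 17.2.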

How the results depend on the processing

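With the dim filter, 2 of the 7 receptor probe sets that passed were at an unadjusted p below 0.05 in limma (7.80% of all called). That filter used the mean of all 6 arrays. Olfr701 and Olfr15 passed it although both wild types lay below the 40th percentile of their arrays. The 2 of 7 can therefore not be set against the 7.80%. In the unfiltered fit 5 of 44 receptor probe sets were at an unadjusted p below 0.05 in limma. This count was 3 after quantile normalisation (5.92% of all probe sets called), 2 after median centring (8.76%) and 10 without the intensity trend (6.84%), 9 of them higher. It ran from 2 to 6 with an array left out, and was 2 without wild type 1, where 3.61% of all probe sets were called. With other offsets or member sets it was 4 to 6. The count of 2 listed olfactory genes was 1 after quantile normalisation and 1 to 4 with an array left out. Over 250 alternative values of 25 named receptor probe sets the direction held in 227, and none had an adjusted p below 0.05. For 16 probe sets it never turned. Where the groups do not overlap, another offset or leaving out an array cannot turn the direction. Some of the 25 were named for that separation, so part of these counts was fixed in advance. Olfr1508 turned to -0.18 after quantile normalisation, -0.20 after median centring and -0.050 with the smaller offset, Olfr558 to -0.093 and -0.20 under both normalisations, and Olfr73 to -0.018 after median centring. With an array left out, Olfr288 ran from -0.60 to 0.034, Olfr1508 from -0.25 to 0.42, Olfr1509 from -0.00011 to 1.03, Olfr64 from -0.052 to 0.76, Olfr17 from -0.095 to 0.66, Olfr73 from -0.50 to 0.89, a dim Olfr78 probe set from -1.07 to 0.65, Olfr544 from -0.25 to 0.24 and Olfr558 from -0.025 to 0.049. The cause was not tested. With 1 wild type left, that mouse is assumed to vary like the knockouts. The members above the array median on all 6 arrays stayed at 0 under each alternative run for them. No paired analysis was possible because the labels give the groups no shared numbers.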

Other observations

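Each other array was highest for 1 or 0 of the 10 measured genes of the olfactory bulb list. Knockout 2, the mouse with little cerebellar signal, was the highest array for 6. Beside Tbx21, Cdhr1 and Doc2g these were Synpr, Sp8 and Meis2, the last at 11595 against 4726 to 9966 elsewhere. It was also the lowest array for 3 of the 10, namely Calb2 at 2605 against 4722 to 8311, Th at 358 against 485.5 to 686.5 and Reln at 5816 against 6530 to 9901. On their brightest probe sets Synpr, Meis2, Reln and Calb2 read 2605 or more on every array, and they are not particular to the bulb. These counts therefore do not measure bulb content. Over all probe sets knockout 2 was the highest array for 14.9% and the lowest for 16.4%. Its receptor signals did not stand apart, with a family median of 61.85, the third highest of the 6. Of the 5 Ebf1 probe sets, which measure a factor of both olfactory neurons and other cells, the brightest read 359 in knockout 2 and 906.6 to 1041 elsewhere.

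Other probe sets of listed genes, not the brightest of their gene, were also at an unadjusted p below 0.05 in limma without passing the adjusted threshold, and were chosen after their values were seen. A Gnal probe set had a log2 fold change of 0.87 (limma adjusted p = 0.738), a dim Kirrel3 probe set 1.22 (limma adjusted p = 0.738) and an Eomes probe set 1.03 (limma adjusted p = 0.738), while the brightest Kirrel3 probe set was at -0.39 and the brightest Gnal one at 0.24.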
